A study of Homo sapiens with 8 samples.

Results

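The stretch of chromosome 6 examined here runs from 26000000 to 28970000 in the hg19 build, across bands 6p22.2 and 6p22.1, and holds the large cluster of histone genes and the large cluster of tRNA genes. Its members are regions marked by dimethylation of lysine 4 of histone H3 (H3K4me2). Peaks of the 4 library lists were merged into 1 region wherever they overlapped by at least 1 bp, and regions that overlapped this 2.97-Mb interval were kept. There were 184 such regions, of 58952 on all chromosomes analysed, and all 184 lay wholly inside the interval.

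The mark was mapped by chromatin immunoprecipitation and sequencing in RD, an established human rhabdomyosarcoma line used between passages 10 and 15 by the labels. Cells received an siRNA against LSD1 (siLSD1) or a control siRNA (siCtrl), had their medium changed after 8 hours and were harvested at 96 hours. Each siRNA has 2 ChIP libraries, which the submitters call biological replicates, and a list of the pooled replicates, and the 4 input libraries were not analysed here. A single cell line and a single siRNA against LSD1 were used, and the fall in LSD1 was not measured in these data.

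LSD1, encoded by KDM1A, is a demethylase that takes H3K4me2 and the monomethylated form as substrates. H3K4me2 marks promoters and enhancers, and it lies over genes that are active or ready to be activated. Canonical histone genes lack introns, are transcribed in S phase to supply histones for new chromatin and often stand in pairs that face away from each other. tRNA genes are transcribed by RNA polymerase III from promoters inside the gene.

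In the RefSeq gene table, which is on GRCh38.p14 and was used here for names and order only, 342 genes stand from H1-1 to ZNF311. Of these, 53 are protein-coding histone genes by symbol, with 6 of H1, 11 of H2A, 14 of H2B, 10 of H3 and 12 of H4. They form 3 runs: 32 genes from H1-1 to H4C8, 5 from H2BC11 to H2AC12, and 16 from H2BC13 to H2BC17. The 144 tRNA genes, 31.0% of the 465 in the table, lie outside the runs, with 47 between the first and second run, 51 between the second and the last, and 46 beyond it. The 6 butyrophilin genes, which encode membrane proteins of the immunoglobulin superfamily, lie between the first and second run. Of the 16 zinc finger and SCAN-domain genes, among which the RING finger gene TRIM27 is counted and most of which encode DNA-binding proteins, 13 lie beyond the last run. No gene was assigned to a region, because the regions are on hg19.

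The promoters of the histone genes differ from other promoters in the sequence motifs they hold, and 3 are printed to show them. RefSeq windows of 300 bases around the start were found for 48 of the 53 genes. The windows below are in GRCh38.p14, on the minus strand, and run 5′ to 3′. Capitals mark every match on either strand to CCAAT, to TATAAA or to the octamer ATTTGCAT, known as a binding sequence of OCT1, and none of these motifs contains another. H2AC4 (chr6:26033569-26033868) and H2BC3 (chr6:26043664-26043963) hold all 3 motifs, and H4C2 (chr6:26027234-26027533) holds TATAAA and neither of the others.
H2AC4: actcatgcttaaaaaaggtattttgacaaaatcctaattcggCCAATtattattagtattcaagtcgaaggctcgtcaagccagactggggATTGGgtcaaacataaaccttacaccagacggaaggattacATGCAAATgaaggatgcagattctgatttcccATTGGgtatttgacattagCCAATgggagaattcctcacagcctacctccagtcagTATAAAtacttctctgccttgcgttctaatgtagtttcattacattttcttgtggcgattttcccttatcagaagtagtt
H2BC3: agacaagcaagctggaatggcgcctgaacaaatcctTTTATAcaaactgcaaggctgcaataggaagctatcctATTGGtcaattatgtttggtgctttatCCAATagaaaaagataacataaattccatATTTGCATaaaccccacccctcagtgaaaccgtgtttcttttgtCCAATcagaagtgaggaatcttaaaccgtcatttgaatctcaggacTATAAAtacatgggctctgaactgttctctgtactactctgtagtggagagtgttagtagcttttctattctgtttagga
H4C2: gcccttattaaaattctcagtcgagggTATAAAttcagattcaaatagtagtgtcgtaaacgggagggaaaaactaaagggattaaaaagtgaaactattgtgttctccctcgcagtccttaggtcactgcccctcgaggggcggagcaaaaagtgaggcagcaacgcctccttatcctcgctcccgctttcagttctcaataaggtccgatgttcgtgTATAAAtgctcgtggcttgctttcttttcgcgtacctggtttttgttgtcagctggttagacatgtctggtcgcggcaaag
CCAAT was found in 41 of 48 histone windows (85.4%) and in 34.6% of all 35116 promoter windows of the same length. TATAAA was found in 31 of 48 (64.6%) and in 11.5% of all windows. The octamer was found in 20 of 48 (41.7%) and in 1.77% of all windows. It was held by 8 of 10 H2A and 11 of 14 H2B windows, by 1 of 8 H3 windows, and by none of the 6 H1 and 10 H4 windows. The H4 windows also differed in CCAAT, which 3 of 10 held, while every window of the other types held it. The histone windows had a median GC content of 42.3%, and all windows had 58.7%. These matches describe letters only, and whether the windows lie under the H3K4me2 regions was not tested.

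The interval was densely marked in cells given either siRNA. It held 62.0 regions per Mb, where all chromosomes together held 19.4 per Mb. Regions with a peak in all 4 libraries, called common, stood at 40.7 per Mb in the interval and 8.78 per Mb over all. The median gap between neighbouring regions was 8.02 kb, and over all regions it was 15.6 kb. The stretch of the same length just before the interval held 62 regions, 32 of them common, and the stretch just after it, toward the major histocompatibility complex, held 119, of which 77 were common.

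The marked sequence lay in dense blocks, with long gaps between them that held no library peak. The first 500 kb held 37 regions, 32 of them common, with 98.1 and 120 kb under peaks in siCtrl replicates 1 and 2 and 109 and 122 kb in siLSD1 replicates 1 and 2. The next 500 kb held 24 regions, of which 9 were common, with 25.7 and 41.4 kb after siCtrl and 31.6 and 39.0 kb after siLSD1. Mixed regions, which have a peak in some libraries but are neither gained, lost nor common, made up 13 of these 24. From 28000001 to 28500000 there were 22 regions, 19 of them common, and 35.3, 45.3, 41.7 and 46.9 kb in the same order of libraries. In each of these 3 segments the libraries of the 2 groups overlapped. The longest stretches without a peak in any library list ran from 27874655 to 28047379 (173 kb), from 26779798 to 26921567 (142 kb) and from 28458793 to 28554345 (95.6 kb). The last of these holds a peak of the pooled siCtrl list, at chr6:28480296-28480972, which scored 61.7. Band 6p22.2 held 61 regions (41 common) and the part of 6p22.1 held 123 (80 common).

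**Figure D1:**
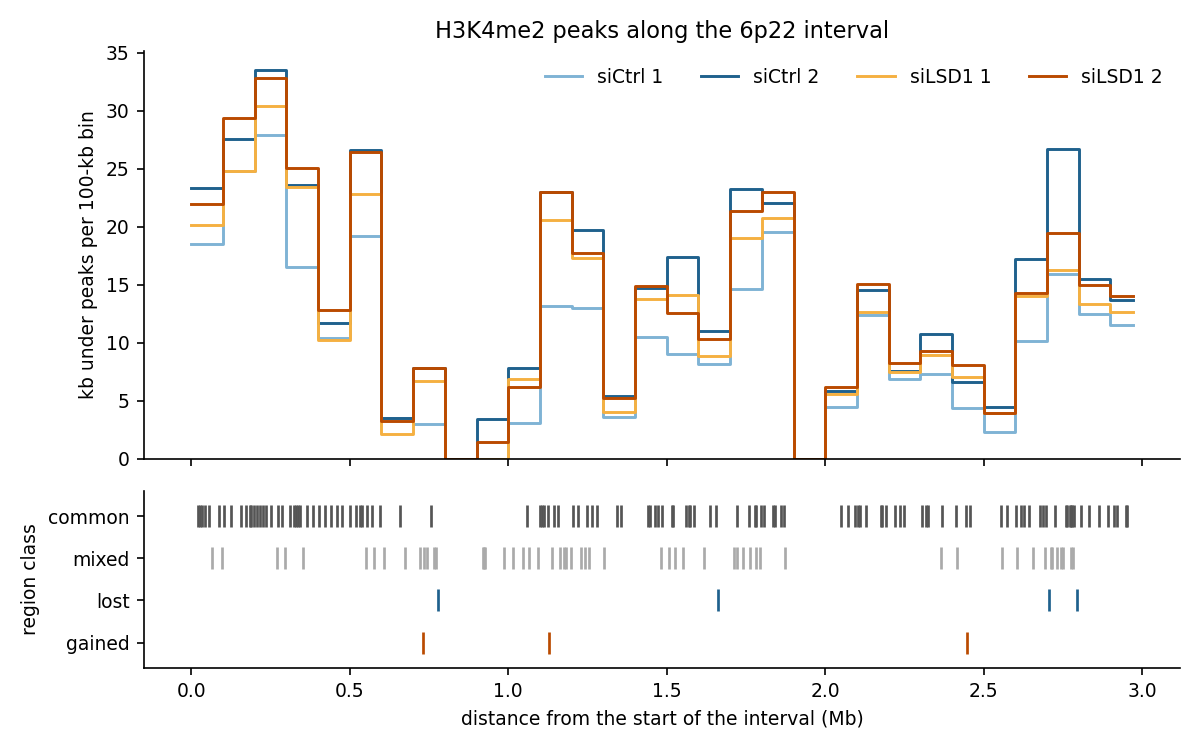
Kilobases under H3K4me2 peaks (upper y axis) in consecutive 100-kb bins along the interval (x axis, distance from its start in Mb), with 1 line for each library list, and below them a tick at the middle of each common, mixed, lost and gained region. The bin 200 to 300 kb from the start is the highest in siCtrl replicate 1, at 27.9 kb, and the 4 lines follow the same blocks and gaps.

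As the plot of covered kb by bin shows, the 4 libraries had their peaks in the same blocks. The bin from 26200000 had 27.9 and 33.5 kb under peaks after siCtrl and 30.4 and 32.9 kb after siLSD1. These groups overlapped.

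Most of the interval's regions were shared by all libraries, and few were gained or lost after siLSD1. Gained regions have a peak in siLSD1 replicates 1 and 2 and in no siCtrl library, and lost regions have one in siCtrl replicates 1 and 2 and in no siLSD1 library. Of the 184 regions, 121 (65.8%, exact 95% interval 58.4 to 72.6%) were common, and of all regions 45.2% were. Gained regions numbered 3 (1.63%, 0.338 to 4.69%), and of all regions 6.97% were gained. Lost regions numbered 4 (2.17%, 0.595 to 5.47%), and of all regions 1.04% were lost. The other 56 were mixed (30.4%, with 46.8% over all regions). In the rest of chromosome 6, with 3281 regions, 5.91% were gained, 0.762% lost and 41.7% common. In the stretch of the same length just before the interval, 1 of 62 regions was gained (1.61%), 0 were lost and 51.6% were common. In the stretch just after it, 5 of 119 were gained (4.20%), 0 were lost and 64.7% were common. The exact 95% intervals cover counting error only.

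The gained and lost counts depended on single siCtrl libraries. The shares over all regions also depended on the lengths of the lists. These held 33878 and 44831 peaks after siCtrl and 50587 and 49611 after siLSD1. Leaving out a siCtrl library loosens the rules for gained and lost regions, so higher counts are in part built in. Without siCtrl replicate 2, 21 regions were gained, or 12.3%, where 19.5% of all regions were. Without siCtrl replicate 1, 19 were lost, or 10.4%, where 7.05% of all regions were. With the 33878 top-scoring peaks of each list, 2 of 159 regions were gained (1.26%, all regions 3.29%), 3 were lost (1.89%, all regions 3.42%) and 111 were common (69.8%, all regions 54.4%). The share of lost regions therefore lay above the share over all regions with the full lists and below it with lists of equal length. How many reads each list rests on is unknown.

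Few regions of the interval were seen only after siLSD1. Regions with a peak in 1 or both siLSD1 libraries and in no siCtrl library numbered 5 (2.72%), and over all regions this share was 24.4%. In the stretches just before and just after the interval it was 25.8% and 12.6%. A single region was found in siLSD1 replicate 1 alone (0.543%, all regions 8.06%) and a single one in siLSD1 replicate 2 alone (0.543%, all regions 9.32%). Regions with a peak in siCtrl libraries only numbered 21 (11.4%), and over all regions this share was 8.23%. Of these 21, 15 were in siCtrl replicate 2 alone (8.15%, all regions 5.88%). With equal numbers of peaks, 6 regions were found after siLSD1 only (3.77%, all regions 13.0%) and 18 after siCtrl only (11.3%, all regions 14.2%).

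**Figure D2:**
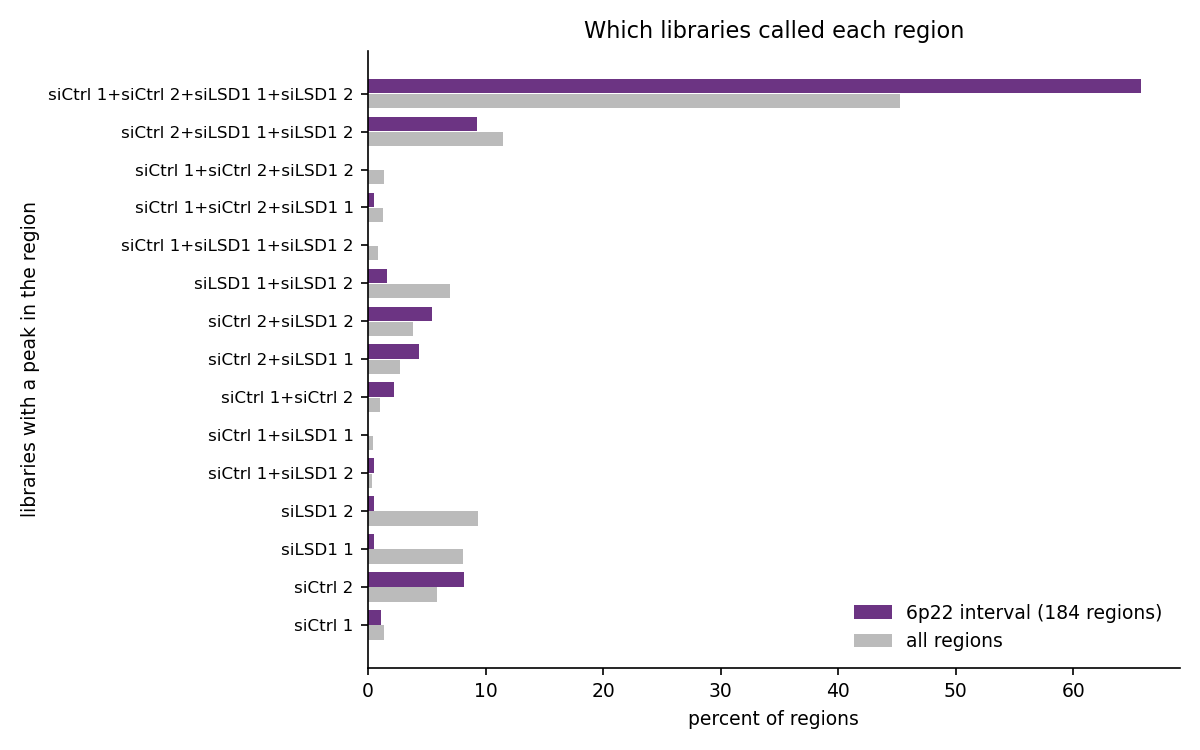
Percent of regions (x axis) with a peak in each combination of the 4 libraries (y axis), for the 184 regions of the interval and for all 58952 regions. The combination of all 4 libraries holds 65.8% of the interval's regions and 45.2% of all regions, and each siLSD1 library alone holds 0.543% of the interval's.

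The mixed regions were mostly missing from siCtrl replicate 1, which had a peak in 4 of the 56. Of all 184 regions, siCtrl replicate 2 had a peak in 176 (95.7%), siCtrl replicate 1 in 129 (70.1%), siLSD1 replicate 1 in 151 (82.1%) and siLSD1 replicate 2 in 153 (83.2%). Over all 58952 regions these shares were 72.7%, 51.8%, 76.9% and 79.3% in the same order. Among the mixed regions, 17 had a peak in siCtrl replicate 2 and both siLSD1 libraries (9.24% of the 184, all regions 11.5%). A further 10 had one in siCtrl replicate 2 and siLSD1 replicate 2 (5.43%, all regions 3.85%), and 8 in siCtrl replicate 2 and siLSD1 replicate 1 (4.35%, all regions 2.69%). Each mixed combination that includes siCtrl replicate 1 held at most 1.09% of the interval's regions and at most 1.33% of all regions. Of the 56 mixed regions, 39 overlapped a peak in both pooled lists. The 15 regions of siCtrl replicate 2 alone had a median width of 777 bp, and 11 of them overlapped a peak of the pooled siCtrl list and 6 a peak of the pooled siLSD1 list.

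The 3 gained regions were short and scored low. The score of a peak is the authors' own value, whose scale is not stated, and it is used here only within a list. In the list of siLSD1 replicate 1 their median score was 74.3, and that of the common regions was 369. In siLSD1 replicate 2 the medians were 103 for gained and 521.5 for common regions. Their median width was 1068 bp, and that of the common regions 2975 bp. Over all regions these medians were 1424 bp and 2789 bp, so gained regions were the shorter ones there too.

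The gained region at chr6:26730112-26731352 scored 74.3 and 135.5 in siLSD1 replicates 1 and 2 and 169 in the pooled siLSD1 list. It stood 25.1 kb from the nearest common region. The gained region at chr6:27129150-27130154 scored 66.5 and 54.1 in the 2 siLSD1 libraries and 147 in their pooled list, and lay 2572 bp from a common region. Neither overlapped a pooled siCtrl peak. The last of them, at chr6:28446527-28447594 scored 109.9 and 103 in the siLSD1 libraries and 158 in the pooled siLSD1 list, and it also overlapped a pooled siCtrl peak that scored 50.1. By the pooled lists, then, 2 of the 3 gained regions were found after siLSD1 only.

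The 4 lost regions had a median width of 1079 bp (all lost regions 1390 bp), and 1 of them scored well above the rest. It lay at chr6:28705571-28707113, with 1.52 and 1.49 kb under peaks in siCtrl replicates 1 and 2. Its peaks there scored 195 and 324, and its pooled siCtrl peak scored 544. The region at chr6:28792320-28793445 scored 64.2 and 105 in the siCtrl libraries and 191 in their pooled list. The region at chr6:26778889-26779797 scored 67.8 and 62.95 in the siCtrl libraries and 244 in the pooled list. The region at chr6:27661273-27662304 scored 57.5 and 74.6 in the siCtrl libraries and 115 in the pooled list. None of the 4 had a peak in either siLSD1 library or in the pooled siLSD1 list.

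Both regions lost near the far end of the interval stand in the same 100 kb, from 28700000 to 28800000, among 16 regions. Covered length there was 15.9 and 26.7 kb after siCtrl and 16.3 and 19.5 kb after siLSD1, so the groups overlapped. With equal numbers of peaks these regions were again lost, together with chr6:27162567-27163476, while the other 2 of the 4 no longer were. The gained regions with equal numbers of peaks were chr6:26295450-26297740 and chr6:26770559-26772242. With the full lists both are mixed, with peaks in siCtrl replicate 2 that scored 69.2 and 91.6.

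The pooled lists showed a like pattern of few regions found after siLSD1 only. They stand for the same replicates as the library lists, so this likeness is no separate support. Of the 174 peaks of the pooled siLSD1 list in the interval, 11 (6.32%) had no overlap in the pooled siCtrl list, and over all peaks of that list the share was 27.0%. Of the 178 peaks of the pooled siCtrl list, 14 (7.87%) had no overlap in the pooled siLSD1 list, and over all peaks the share was 8.86%. The pooled lists have no replicates, and no test was run on them. With equal numbers of peaks, the 45219 top-scoring of each pooled list, 3 of 158 peaks were found after siLSD1 only (1.90%, all peaks 15.96%) and 21 of 178 after siCtrl only (11.8%, all peaks 16.02%). With the upper 50% of each list by score, these counts were 13 of 127 (10.2%, all peaks 23.1%) and 4 of 118 (3.39%, all peaks 5.06%). With the full lists and with both of these alternatives, the share in the interval lay below the share over all peaks in each direction.

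Peaks of 1 pooled list only had low scores, with medians of 75.2 after siCtrl and 74.9 after siLSD1, where shared peaks had medians of 696 and 698. The 5 of highest score in the pooled siCtrl list were the 4 lost regions and chr6:27162567-27163476, which scored 150 there and also had peaks in both siCtrl libraries and in siLSD1 replicate 1. In the pooled siLSD1 list they were 2 of the gained regions and a further 3 peaks. Of these, chr6:26351144-26352598 scored 148 and was also found in siCtrl replicate 2 and both siLSD1 libraries. The peak at chr6:27382165-27383191 scored 76.9 and was found in no library list. The peak at chr6:27506603-27507808 scored 75.0 and overlapped a peak of siCtrl replicate 2 alone.

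Covered length in the interval did not separate the siRNAs. Peaks covered 306 and 429 kb in siCtrl replicates 1 and 2 and 368 and 409 kb in siLSD1 replicates 1 and 2, so both siLSD1 libraries lay between the siCtrl libraries. The siCtrl mean was 367.5 ± 86.4 kb and the siLSD1 mean 388.5 ± 29.1 kb (SD, n = 2 each), a difference of 21.1 kb with an exact two-sided permutation p of 1. Leaving out siCtrl replicate 1 gave -40.0 kb, and leaving out siCtrl replicate 2 gave 82.1 kb. Leaving out siLSD1 replicate 1 gave 41.6 kb, and leaving out siLSD1 replicate 2 gave 0.511 kb. The number of peaks was 152 and 181 after siCtrl and 176 and 163 after siLSD1. Their means were 166.5 ± 20.5 and 169.5 ± 9.19 (SD, n = 2 each), a difference of 3 with an exact permutation p of 1. For peaks, the differences with siCtrl replicate 1 or 2 left out were -11.5 and 17.5, and those with siLSD1 replicate 1 or 2 left out were -3.5 and 9.5. With equal numbers of peaks per list, the interval held 152 and 149 after siCtrl and 143 and 138 after siLSD1. These groups did not overlap, with a difference of -10 and an exact permutation p of 0.333, the smallest that 2 libraries against 2 allow. Of each full list's peaks, the interval held 0.449% and 0.404% after siCtrl and 0.348% and 0.329% after siLSD1. These groups did not overlap either.

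The interval took a smaller share of the marked sequence in both siLSD1 libraries. Of each library's whole covered length, the interval held 0.437% and 0.455% after siCtrl and 0.380% and 0.392% after siLSD1, so the groups did not overlap. The means were 0.446 ± 0.0131% and 0.386 ± 0.00842% (SD, n = 2 each), a ratio of 0.865 or a log2 difference of -0.21. A two-sided exact permutation test gave p = 0.333, the smallest that 2 libraries against 2 allow. The whole lists covered 70.1 and 94.1 Mb after siCtrl and 96.9 and 104 Mb after siLSD1, more in both siLSD1 libraries than in either siCtrl library. With equal numbers of peaks the shares were 0.437% and 0.486% after siCtrl and 0.428% and 0.449% after siLSD1, so the groups overlapped. The log2 difference was then -0.07, and with the upper 50% of each list it was -0.08. The exact permutation p was 0.667 in both.

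**Figure D3:**
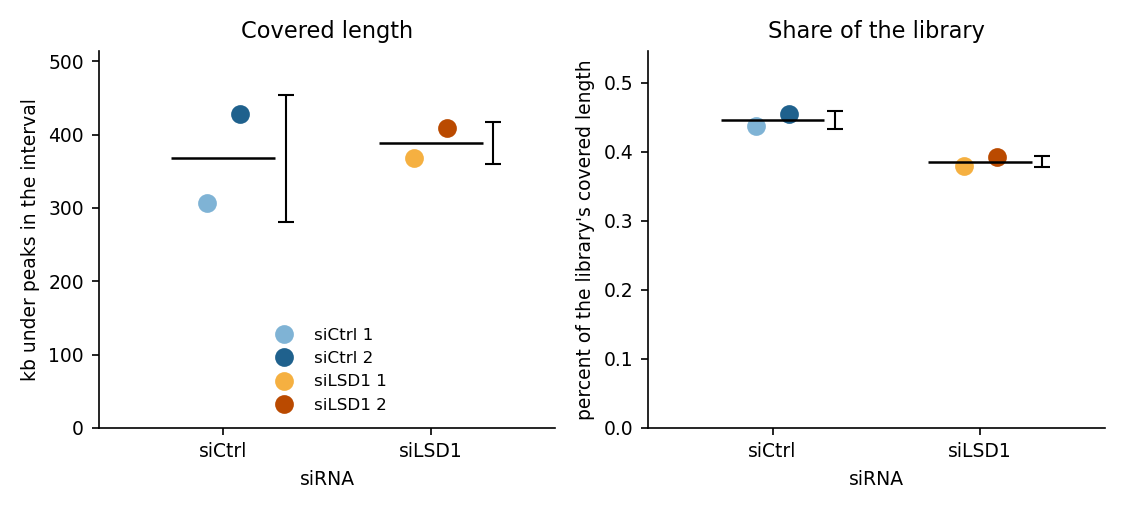
Kilobases under peaks in the interval (left y axis) and the percent of each library's covered length that lies there (right y axis), with points for libraries, lines for group means and bars for SD (n = 2 per siRNA). The siLSD1 points lie between the siCtrl points on the left and below both of them on the right.

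To set that share beside the rest of the genome, chromosomes 1 to 22 and X were divided into stretches of the interval's length, a choice made after the shares were seen. Of 776 stretches with enough covered length, the interval ranked 10 from the highest in mean kb under peaks. Its log2 difference in share was -0.21 (SE 0.101), the 51st lowest of the 776, with a range from -0.39 to 0.69 and a median of 0.01. By limma the unadjusted p was 0.0633 and the adjusted p = 0.570. At an adjusted p under 0.05, limma called 0 stretches higher and 0 lower (0% in each direction), and at an unadjusted p under 0.05 there were 39 and 22. A lower share in both siLSD1 libraries was found in 162 stretches (20.9%). Without siCtrl replicate 1 the interval's difference was -0.25 (limma adjusted p = 3.70e-06), and without siCtrl replicate 2 it was -0.17 (limma adjusted p = 0.00309). The first of these fits called 14 stretches higher and 8 lower of 776 (1.80% and 1.03%), and the second 70 and 54 (9.02% and 6.96%). In these 2 fits the lone siCtrl library is assumed to vary like the siLSD1 libraries. Without siLSD1 replicate 1 or 2 the limma adjusted p was 0.993 and 0.997.

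Windows of 10 kb gave no call. In 155 tested windows of the interval, limma called 0 higher and 0 lower at an adjusted p under 0.05, as it did in all 43372 windows tested (0% in each direction). At an unadjusted p under 0.05, 3 windows of the interval were higher and 3 lower, where the shares of all windows were 12.4% and 1.94%. Without siCtrl replicate 2 there were 27 higher and 1 lower (all windows 20.2% and 1.17%), and without siCtrl replicate 1 there were 0 and 12 (all windows 7.63% and 2.52%). Without siLSD1 replicate 1 there were 5 and 3 (all windows 13.4% and 2.59%), and without siLSD1 replicate 2 there were 1 and 8 (all windows 12.3% and 3.11%). The median difference was 0.136 kb in the interval and 0.213 kb over all windows. Without siCtrl replicate 1 these medians were -0.115 and 0.029 kb, and without siCtrl replicate 2 they were 0.404 and 0.452 kb. With quantile normalization they were -0.255 and -0.146 kb, so the sign of the interval's median followed the scaling.

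Of the 5 windows of lowest p, 3 hold lost regions. Windows and region classes were built from the same peaks, so this overlap is no separate support for the classes. The window from 28700001 to 28710000 had 1.52 and 1.49 kb under peaks after siCtrl and 0 kb in both siLSD1 libraries (limma adjusted p = 0.129). The window from 27660001 to 27670000 had 0.727 and 0.827 kb after siCtrl and 0 kb after siLSD1 (limma adjusted p = 0.148). The window from 28790001 to 28800000 had 0.714 and 1.13 kb after siCtrl and 0 kb after siLSD1 (limma adjusted p = 0.198). The other two had more under peaks in both siLSD1 libraries, and each holds all or part of a gained region. From 28440001 to 28450000 the values were 1.05 and 1.35 kb after siCtrl and 2.11 and 2.41 kb after siLSD1 (limma adjusted p = 0.156). From 27120001 to 27130000 they were 1.43 and 1.95 kb after siCtrl and 2.54 and 2.88 kb after siLSD1 (limma adjusted p = 0.264).

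The common regions carried most of the covered length, from 85.9% in siCtrl replicate 2 to 97.8% in siCtrl replicate 1. No such share over all regions is given here, so this is not read as a trait of the interval. Their scores stood high in each list, with medians of 247 and 782 in siCtrl replicates 1 and 2 and 369 and 521.5 in siLSD1 replicates 1 and 2. These medians stood at percentiles between 62.1 and 74.7 of the lists' own scores. Over all common regions the median percentiles were close to these, between 58.6 and 72.3. Their median breadth, the kb under peaks in a region, was 2151 and 2598 bp after siCtrl and 2352 and 2717 bp after siLSD1. The groups overlapped, as both replicates 2 lay above both replicates 1.

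The broadest common region of the interval, at chr6:27856751-27864696, had 7.004 and 7.95 kb under peaks in siCtrl replicates 1 and 2 and 7.24 and 7.80 kb in siLSD1 replicates 1 and 2. The next, at chr6:26194205-26201035, had 6.32 and 6.40 kb after siCtrl and 6.33 and 6.83 kb after siLSD1. A region at chr6:26326965-26333430 had 5.87 and 6.44 kb after siCtrl and 5.73 and 6.45 kb after siLSD1. In all 3 the siCtrl and siLSD1 values overlapped.

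At chr6:27633996-27640886 the breadth was 5.39 and 6.49 kb after siCtrl and 6.22 and 6.02 kb after siLSD1. Its scores in the library lists were 239, 2266, 884 and 1606 in the same order. The region at chr6:26155080-26161322 measured 5.39, 5.96, 5.40 and 6.24 kb, and the region at chr6:26122212-26128336 measured 5.08, 5.72, 5.16 and 6.13 kb. Near the far end, chr6:28906965-28912724 measured 5.17, 5.66, 5.29 and 5.76 kb. In each of these last 3 both replicates 2 exceeded both replicates 1.

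The last of the 10 broadest were chr6:27260748-27266586, with 5.05, 5.70, 5.46 and 5.66 kb, chr6:27774034-27779766, with 4.69, 5.56, 5.54 and 5.71 kb, and chr6:26269561-26275203, with 4.12, 5.64, 5.45 and 5.36 kb. siCtrl replicate 1 was the narrowest library in all 3. In all 10 of the broadest regions the 2 groups overlapped.

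**Figure D4:**
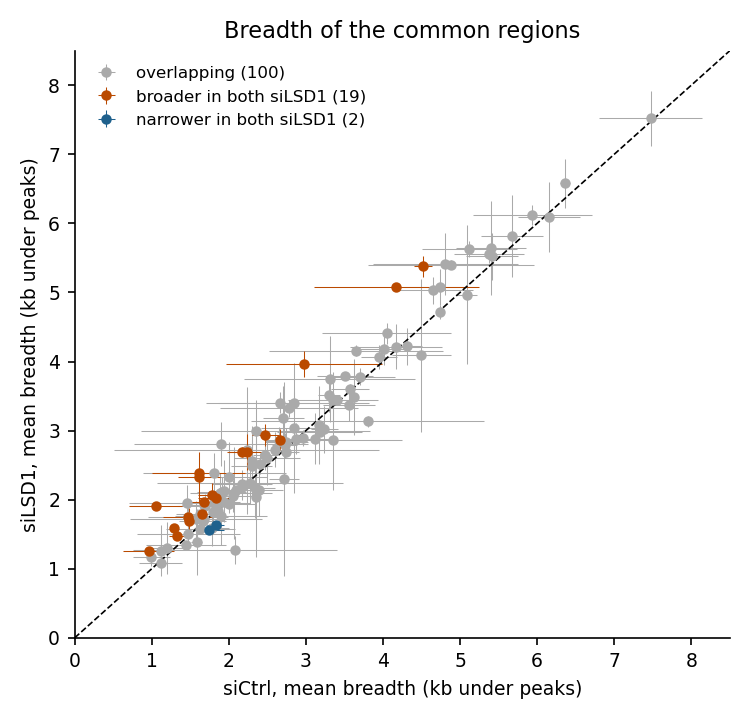
Breadth of the 121 common regions in kb, mean of the siLSD1 libraries (y axis) against mean of the siCtrl libraries (x axis), 1 point per region, with bars for SD (n = 2 per siRNA), the dashed line at equal breadth and colours for regions whose groups do not overlap. Points lie close to the line of equal breadth, with 19 regions broader and 2 narrower in both siLSD1 libraries.

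Across the 121 common regions the median log2 difference in breadth, siLSD1 minus siCtrl, was 0.07, and over all 26653 common regions it was 0.08. It was above 0 in 90 of 121 (74.4%), and in 68.1% of all common regions. This direction rested on siCtrl replicate 1 and on the scaling. Without siCtrl replicate 1 the median was -0.05, with 40 of 121 above 0 (33.1%, all common regions 50.04%), and without siCtrl replicate 2 it was 0.22, with 101 above 0 (83.5%, all 76.9%). With each library centred on its median log2 breadth it was -0.04, with 50 above 0 (41.3%, all 43.4%). Without siLSD1 replicate 1 it was 0.15, with 107 above 0 (88.4%, all 73.3%), and without siLSD1 replicate 2 it was 0.01, with 67 above 0 (55.4%, all 59.8%). Each siLSD1 library exceeded each siCtrl library in breadth in 19 regions (15.7%), where this held for 30.3% of all common regions. Both were narrower in 2 regions (1.65%), at chr6:28322807-28324789 and chr6:28602138-28604071, where this held for 9.62% of all. siCtrl replicate 1 was the narrowest library in 88 of 121 regions (72.7%, all common regions 56.6%). siLSD1 replicate 2 was the broadest in 61 (50.4%, all 40.5%) and siCtrl replicate 2 in 47 (38.8%, all 29.4%).

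The test on breadth called none of these regions. By limma, 0 of 121 common regions were broader and 0 narrower at an adjusted p under 0.05, as in all common regions (0% in each direction). At an unadjusted p under 0.05, 3 were broader and 0 narrower, where the shares over all common regions were 7.11% and 1.58%. These counts moved with the libraries left out. There were 23 broader and 0 narrower without siCtrl replicate 2 (all common regions 15.9% and 1.21%), and 1 broader and 2 narrower without siCtrl replicate 1 (all 4.47% and 2.22%). There were 0 and 0 without siLSD1 replicate 1 (all 4.54% and 1.29%), and 0 and 2 without siLSD1 replicate 2 (all 3.47% and 1.94%). The lowest limma adjusted p among the 121 was 0.462.

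The region with the largest difference, at chr6:26335674-26337736, had 0.806 and 1.29 kb under peaks after siCtrl and 1.91 and 1.91 kb after siLSD1. Its log2 difference was 0.90 (SE 0.27) with a limma adjusted p = 0.462, and the groups did not overlap. At chr6:28756558-28759699 the values were 1.10 and 2.70 kb after siCtrl and 3.04 and 2.58 kb after siLSD1, a log2 difference of 0.70, and the groups overlapped. At chr6:28317089-28319594 they were 1.18 and 2.04 kb after siCtrl and 2.36 and 2.42 kb after siLSD1, a log2 difference of 0.62. These groups did not overlap, nor did those of chr6:27869361-27871942, with 1.43 and 1.81 kb after siCtrl and 2.06 and 2.58 kb after siLSD1 (log2 difference 0.52). At chr6:27567777-27569993, with 0.931 and 1.997 kb after siCtrl and 2.14 and 1.76 kb after siLSD1 (log2 difference 0.51), they overlapped. In all 5, siCtrl replicate 1 was the lowest library.

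In 4 of the 5 regions with the smallest differences, a single library stood apart from the rest. At chr6:28777385-28780452 siCtrl replicate 2 had 3.02 kb, and siCtrl replicate 1 and siLSD1 replicates 1 and 2 had 1.14, 1.42 and 1.13 kb, a log2 difference of -0.56. At chr6:26658196-26661550 siLSD1 replicate 1 had 1.302 kb, and siCtrl replicates 1 and 2 and siLSD1 replicate 2 had 2.85, 2.58 and 3.29 kb (-0.39). At chr6:26473119-26475967 siLSD1 replicate 1 had 1.43 kb, where siCtrl had 2.36 and 2.35 kb and siLSD1 replicate 2 had 2.65 kb (-0.28). At chr6:27719663-27721398 siLSD1 replicate 1 had 1.05 kb, where siCtrl had 1.53 and 1.63 kb and siLSD1 replicate 2 had 1.72 kb (-0.23). At chr6:28862625-28866614 the values were 2.72 and 3.99 kb after siCtrl and 2.35 and 3.37 kb after siLSD1 (-0.23). The groups overlapped in all 5.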

How the data were processed

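H3K4me2 ChIP-seq peak lists of RD cells were used: 1 per library (2 libraries per siRNA) and 1 per siRNA for the pooled replicates. Per the submitters' processing notes, the authors aligned reads with Bowtie to hg19. The aligner's version, the settings of MACS, whose name the deposited peak names carry, how replicates were pooled and whether inputs served as controls: all not given in the sources used here. In the deposited lists are positions and a score per peak, the authors' own value, with a minimum of 50. No read depth is among them, so depth is unknown.

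Peaks on chromosomes 1 to 22 and X were merged over the 4 library lists at 1 bp overlap. Coordinates are hg19, counted from 1. Totals were compared with two-sided exact permutation tests, and shares carry exact (Clopper-Pearson) 95% intervals. Covered kb in 10-kb windows (at least 0.5 kb in at least 2 libraries), log2 breadth of common regions and log2 share in stretches of the interval's length (at least 20 kb in mean) were tested over the whole genome with limma 3.58.1 (trend and robust, statmod 1.5.0, R 4.3.3), with Benjamini-Hochberg adjustment. Other steps used scipy 1.17.1, pandas 2.3.3, matplotlib 3.10.9 and numpy 2.4.6 under Python 3.11.15, and hg19 cytobands came with circlize 0.4.16. The region building was run on simulated peaks whose neighbouring sites never touched, and limma on simulated windows. Their outcomes are not given here, so they do not show how large a change limma could have called.

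Regions named are all gained and lost regions, the 10 broadest common regions, the 5 largest and 5 smallest breadth differences, the 5 windows of lowest p and the 5 highest-scoring peaks of 1 pooled list only. Members, lists and rules were chosen with earlier results of these data known. Alternatives were equal numbers of peaks, the upper 50% by score, other overlaps and gaps, other scaling and filters, a replicate block and leaving out each library. The stretches, and the alternatives for the share of covered length, were added after the data were seen.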

Additional observations from a re-analysis of the deposited data

How the results depend on the processing

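With the upper 50% of each list by score, 1 of 129 regions was lost (0.775%, all regions 0.697%), 79 were common (61.2%, all regions 51.4%) and 4 of 118 peaks were found in the pooled siCtrl list only (3.39%, all peaks 5.06%). With equal numbers of peaks, 3 of 158 were found in the pooled siLSD1 list only (1.90%, all peaks 15.96%) and the difference in number of peaks was -10. Leaving out 1 library gave 3 to 21 gained regions (21 without siCtrl replicate 2) and 4 to 19 lost regions (19 without siCtrl replicate 1). It also loosens the rules that define the classes. Common regions then numbered 121 to 138. The 138 without siCtrl replicate 1 were 75.8% of 182, where 57.4% of all regions were common. Differences ran from -40.0 to 82.1 kb and from -11.5 to 17.5 peaks, and the log2 difference in share from -0.24 to -0.18. The log2 share by stretches ran from -0.25 to -0.17, and its limma call at an adjusted p under 0.05 was made only in the fits that left out a siCtrl library, which called 22 and 124 of the 776 stretches. With a replicate block, the differences were 61.6 kb and 24 peaks within replicate number 1 and -19.5 kb and -18 peaks within number 2, and the log2 share differed by -0.20 and -0.22. The block gave a limma adjusted p of 0.222 for the interval's stretch and called 29 stretches higher and 11 lower. Libraries of the same number deviated together weakly (correlation 0.150 over windows and 0.188 over common regions), and 2 pairs do not establish a pairing. The causes were not tested. Of the other 69 recomputed values, counts of calls stayed within 1.5 times the reported count and differences kept their sign. This does not hold for the medians beside those counts: the window median was 0.136 kb as reported, -0.115 kb without siCtrl replicate 1, -0.255 kb with quantile normalization and -0.292 kb with scaling to equal covered length, and the breadth median turned in the fits given in the report. Unknown depth limits every count of regions.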

Other observations

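The common regions of the interval were broken into more than 1 peak at different rates in the library lists. This was so for 22 of the 121 common regions in siCtrl replicate 1 and 25 in siLSD1 replicate 1, and for 5 in siCtrl replicate 2 and 8 in siLSD1 replicate 2. Both replicates 1 had more such regions than both replicates 2. Over all 26653 common regions the order was the same, with 11.7% in siCtrl replicate 1, 17.0% in siLSD1 replicate 1, 6.35% in siCtrl replicate 2 and 9.53% in siLSD1 replicate 2.

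The highest score of a peak in the interval was 3100.0 in both pooled lists. The same value was the highest in the stretch just after the interval in siLSD1 replicate 2 and in the pooled siLSD1 list. Why it recurs was not tested, and the tie is not read as a likeness of the pooled lists. In the library lists the highest score in the interval ran from 886 in siCtrl replicate 1 to 2699 in siCtrl replicate 2. Whether scores of different lists share a scale is unknown. Among the 14 peaks of the pooled siCtrl list without overlap in the pooled siLSD1 list, 4 had a peak in both siCtrl libraries and no other, 5 in siCtrl replicate 2 alone and 3 in no library list. Among the 11 peaks of the pooled siLSD1 list without overlap in the pooled siCtrl list, 2 had a peak in both siLSD1 libraries and no other, and 5 in no library list.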
